A study of Mus musculus with 12 samples.

Results

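The genes described here are 10 heat shock protein genes in the dorsal root ganglion (DRG), the ganglion that holds the cell bodies of sensory neurons. They are the chaperone genes Hspb1, Hspb8, Cryab, Hspa8, Hspa1a, Hspa1b, Hsp90aa1, Hsph1 and Dnajb1 and the gene of their regulator, Hsf1, which were taken by gene name from the table of read counts. These are 10 of the 44345 gene names in the table. All 10 passed the filter on low counts, which left 16238 genes for testing.

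RNA from whole sciatic L4-L6 DRG of C57BL/6 mice aged 5 to 8 weeks was sequenced in 4 groups of 3 samples. Mice lived in standard housing (SH) or in environmental enrichment (EE), larger cages with more company, objects, a running wheel and treats, for 10 days. They then had a sciatic nerve axotomy (SNA), in which the nerve is cut through, or a sham operation that only exposed the nerve, and DRG were taken 24 h later. Housing and surgery were crossed, which gave the sham groups SH Sham and EE Sham and the injured groups SH SNA and EE + SNA. Each sample pooled the DRG of both sides of 2 mice, 6 mice a group. A pool hides the spread between its mice. The study describes EE Sham as coming from earlier work, but the labels list it beside the other groups. A difference between sequencing rounds therefore cannot be told apart from EE in EE Sham against SH Sham, nor from SNA in EE + SNA against EE Sham, and it enters the interaction too. The other comparisons do not use EE Sham.

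Heat shock proteins are chaperones that keep other proteins folded and soluble. HSP70 proteins (Hspa1a, Hspa1b, Hspa8) and HSP90 proteins (Hsp90aa1) use ATP to refold clients, J proteins such as Dnajb1 bring clients to HSP70, and Hsph1 exchanges its nucleotide. Small heat shock proteins (Hspb1, Hspb8, Cryab) hold unfolded proteins without ATP and also bind the cytoskeleton. Hsf1 encodes the transcription factor that switches on the heat-inducible genes by binding heat shock elements, which are inverted repeats of GAA and TTC. In DRG neurons, Hspb1 is known for supporting survival and axon growth after injury, and its mutations, like those of Hspb8, cause inherited neuropathies of motor and sensory axons.

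The genes were placed on GRCm38, the assembly that mm10 names, with the GENCODE M21 annotation, and all 10 are protein coding. Hspb1 (ENSMUSG00000004951) lies on chromosome 5 from 135887919 to 135889563, and Hspb8 (ENSMUSG00000041548) on the same chromosome from 116408491 to 116422864. Cryab (ENSMUSG00000032060) lies on chromosome 9 from 50751325 to 50756636, where 252 of its 1479 exon bases are shared with Hspb2 on the other strand. Hspa1a (ENSMUSG00000091971, 34969190 to 34972156) and Hspa1b (ENSMUSG00000090877, 34956436 to 34959238) are neighbours on chromosome 17, and 564 of the 2967 exon bases of Hspa1a are shared with Gm20481 on the other strand. The counting may not have separated strands, so that reads in these shared stretches cannot be assigned with certainty. Hspa8 (ENSMUSG00000015656) lies on chromosome 9 from 40800984 to 40810087, Hsp90aa1 (ENSMUSG00000021270) on chromosome 12 from 110690605 to 110702728 and Hsph1 (ENSMUSG00000029657) on chromosome 5 from 149614287 to 149636376. Dnajb1 (ENSMUSG00000005483) lies on chromosome 8 from 83608193 to 83612653 and Hsf1 (ENSMUSG00000022556) on chromosome 15 from 76477422 to 76501913. Of the 100-base windows of Hspa1a transcripts, 47.1% occur letter for letter in Hspa1b. Reads that fit both copies equally well can be set aside as not unique, so that both counts can be too low. Their sum is given as well, but it does not recover such reads. Of the windows of Hspa8 and Hsp90aa1, 28.5% and 38.0% occur in transcripts of other genes. Of the windows of Hspb1, 44.0% occur in its pseudogene Hsp25-ps1, which had only 1.46 to 3.03 CPM (read counts per unit of library size, so that libraries of different depth can be compared). Any reads of Hspb1, Hspa8 and Hsp90aa1 set aside as not unique are likewise missing from their counts.

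The bases before the start of a gene are where heat shock elements lie, and the promoters of Hspb1 and Hspb8, which rose after SNA, are therefore printed beside those of the inducible Hspa1a and Hspa1b, which were not called. The RefSeq table used here (GRCm38.p6) holds 6 of the 10 genes, and Hspa8, Hsp90aa1, Cryab and Hsf1 are not shown. Each sequence is the 250 bases before the start, from 5′ to 3′ on the strand of the gene, at chr5:135887669-135887918 (plus) for Hspb1, chr5:116422865-116423114 (minus) for Hspb8, chr17:34972157-34972406 (minus) for Hspa1a and chr17:34959239-34959488 (minus) for Hspa1b. Capitals mark inverted repeats of the form GAANNTTC or TTCNNGAA, where N is any base and each form reads the same on both strands.
Hspb1: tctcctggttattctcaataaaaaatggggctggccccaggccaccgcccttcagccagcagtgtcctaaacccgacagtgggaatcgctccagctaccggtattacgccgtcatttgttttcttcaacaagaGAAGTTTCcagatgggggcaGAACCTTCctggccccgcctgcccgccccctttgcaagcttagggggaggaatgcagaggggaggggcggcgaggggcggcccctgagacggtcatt
Hspb8: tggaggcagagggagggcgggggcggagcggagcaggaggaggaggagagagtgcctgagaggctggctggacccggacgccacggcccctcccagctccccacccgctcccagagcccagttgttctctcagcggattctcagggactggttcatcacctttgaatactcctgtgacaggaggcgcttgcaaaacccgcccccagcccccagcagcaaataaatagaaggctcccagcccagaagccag
Hspa1a: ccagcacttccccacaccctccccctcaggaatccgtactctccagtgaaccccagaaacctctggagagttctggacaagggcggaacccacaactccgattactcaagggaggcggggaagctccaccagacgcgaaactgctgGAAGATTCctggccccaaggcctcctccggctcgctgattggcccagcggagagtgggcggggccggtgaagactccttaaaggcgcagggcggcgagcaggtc
Hspa1b: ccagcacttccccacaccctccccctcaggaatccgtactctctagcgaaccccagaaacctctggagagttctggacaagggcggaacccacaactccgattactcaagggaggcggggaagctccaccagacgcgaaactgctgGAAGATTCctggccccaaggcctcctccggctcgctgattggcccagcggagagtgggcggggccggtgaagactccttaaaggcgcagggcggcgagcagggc
Hspb1 held 2 such repeats, which begin 117 and 97 bases before the start. Hspa1a and Hspa1b held 1 each, 104 bases before the start, and their windows were identical at 247 of 250 positions. These letters were not in the window of Hspb8. Of all 32851 windows of that length in the table, 12.8% held a repeat, and of its 27025 genes 14.5% did. Of the 6 genes with a window, 4 held one (Hspb1, Hspa1a, Hspa1b and Hsph1), and these include the nearly identical windows of Hspa1a and Hspa1b. A run of 3 alternating units with the same spacing was in 0.466% of all windows and in 0 of the 6 genes.

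Levels between genes were compared in FPKM, which divide by gene length. Hspa8, the constitutive HSP70, had the highest mean over the 12 samples (624 FPKM, range 575 to 692), followed by Hsp90aa1 (457 FPKM, 419 to 494), and the ranges did not overlap. Hspb1 (253 FPKM) and Hspb8 (197 FPKM) came next, and whether their ranges overlapped turned on surgery. In the 6 sham samples Hspb1 spanned 177 to 212 FPKM and overlapped Hspb8 at 178 to 189.8 FPKM, whereas in the 6 SNA samples Hspb1 lay at 279 to 336 FPKM, above Hspb8 at 202 to 219 FPKM. Cryab had 139.8 FPKM (96.5 to 171), below every value of Hspb8. Hsph1 (32.1 FPKM) and Dnajb1 (26.6 FPKM) overlapped, and Hsf1 had 12.2 FPKM. The inducible Hspa1b and Hspa1a were lowest, with 1.77 and 1.52 FPKM and overlapping ranges, and rest on only 49 to 116 and 42 to 102 counted reads per sample. Reads set aside because they fit both copies are missing from these values, so that the levels may be too low.

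The libraries held 11343579 to 22871460 reads on genes. Sensory neuron markers, 8 of 8 tested, summed to 10889 to 12775 CPM, so that the defining genes of the labelled tissue were present. Atf3, a transcription factor that axotomized sensory neurons switch on, checked the labels. It had 109.9 to 168 CPM in the 6 sham samples and 454 to 549 CPM in the 6 SNA samples, and the groups did not overlap. All 6 listed injury response genes, including Atf3, were called higher in SH SNA and in EE + SNA against their own sham group. Immediate early genes, which also react to dissection, summed to 267 to 301 CPM in sham and 371 to 410.1 CPM in SNA samples. Of these 11 genes, 4 were called higher in SH SNA against SH Sham (Jun, Dusp1, Btg2 and Arc) and 7 were not called. The estimate was above 0 for 9 of the 11, among them Egr2 (log2 0.35, not called). Only Fos (log2 −0.18) and Egr1 (log2 −0.41) had estimates below 0. Jun, which is on the injury list too, was the largest part of the sum (127 to 141 CPM in sham and 205 to 226 CPM in SNA samples). The part of these genes in the results below was not tested.

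**Figure D1:**
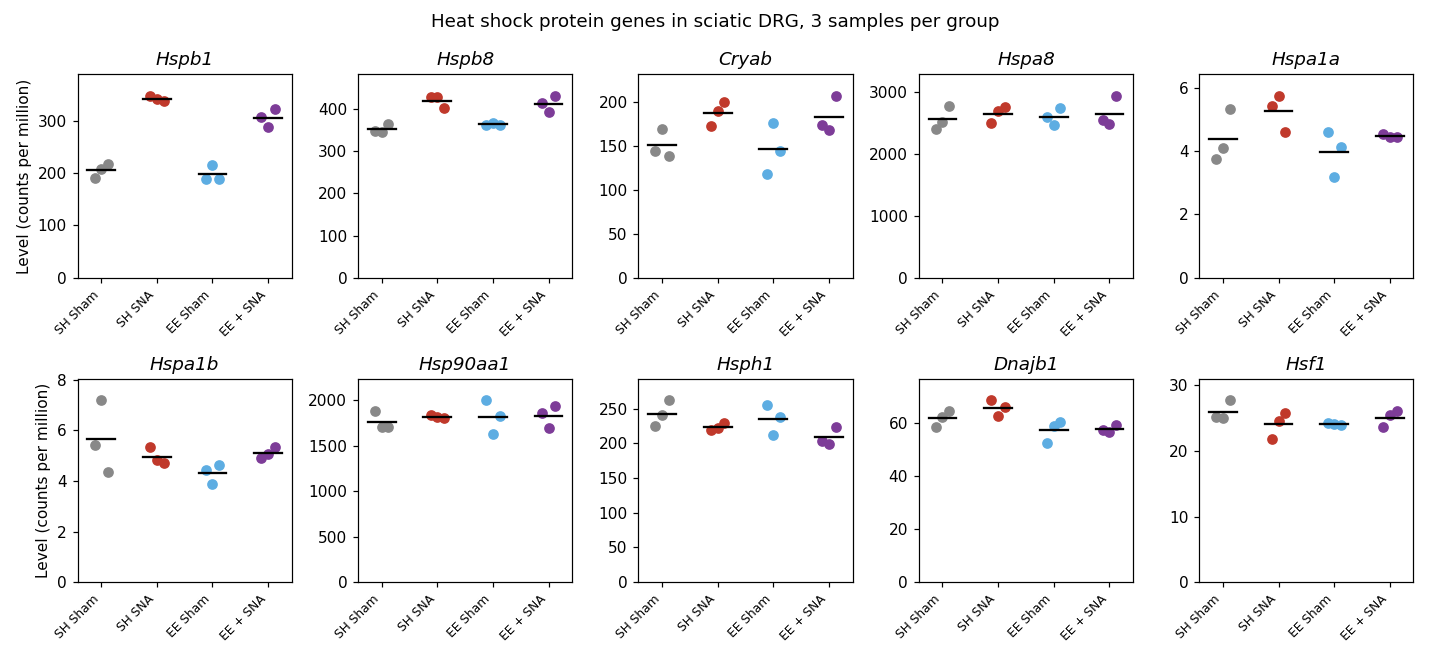
Level in CPM (y axes, from 0) of each heat shock protein gene in every sample, by group (x axes), with points for the 3 samples and a black line for their mean. Hspb1 lies at 188 to 217 CPM in the 6 sham samples and at 288 to 348 CPM in the 6 SNA samples.

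Hspb1, Hspb8 and Cryab, the 3 small heat shock protein genes among the 10, were called higher after SNA in standard housing. Hspb1 had 191, 208 and 217 CPM in SH Sham and 348, 342 and 338 CPM in SH SNA. Every injured sample was higher than every sham sample, and the mean rose 1.67-fold, from 205 ± 13.2 to 343 ± 4.62 CPM (SD, n = 3). The log2 fold change was 0.74 (SE 0.058, 95% interval 0.62 to 0.87, adjusted P = 8.61e-06 by edgeR's quasi-likelihood test with Benjamini-Hochberg adjustment over all genes tested), and it was 0.68 to 0.78 over the 16 alternative settings, in all of which it passed.

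Hspb8, which works with the co-chaperone Bag3 in clearing misfolded proteins, had 349, 345 and 365 CPM in SH Sham. In SH SNA it had 429, 428 and 403 CPM, again without overlap. This was 1.19-fold (log2 0.25, SE 0.054, 95% interval 0.14 to 0.37), with adjusted P = 0.00904 in edgeR's quasi-likelihood test, and it passed in 16 of 16 alternatives.

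Cryab encodes alpha-B crystallin, a chaperone of glia, lens and muscle. Its levels were 144, 169.5 and 139 CPM in SH Sham and 172, 189.9 and 200.5 CPM in SH SNA, so that the groups were separated by a gap of only a few CPM. It rose 1.25-fold (log2 0.32, SE 0.081, 95% interval 0.14 to 0.50, adjusted P = 0.0234 in edgeR's quasi-likelihood test). This call passed in 9 of 16 alternatives. The adjusted P was 0.0856 without SH Sham replicate 1, 0.0917 without SH Sham replicate 3, 0.0529 without SH SNA replicate 2 and 0.0809 without SH SNA replicate 3, each in edgeR's quasi-likelihood test, and up to 0.106 in the other settings.

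These 3 genes made up all the calls among the 10 in SH SNA against SH Sham. At adjusted P under 0.05, edgeR called 11.2% of all genes tested in either direction and 6.06% as higher. The same 3 genes were those called at unadjusted P under 0.05, a threshold that 25.2% of all genes passed, and those whose SH SNA samples all lay above SH Sham, as 14.3% of all genes did. The median log2 fold change of the 10 genes was 0.073, against 0.0047 over all genes tested.

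The other 7 of the 10 genes, which encode HSP70, HSP90 and HSP110 chaperones, a J protein and Hsf1, were not called after SNA in standard housing. Hspa8 had 2399.8, 2506 and 2765 CPM in SH Sham and 2491, 2692 and 2747 CPM in SH SNA, with overlap and a log2 fold change of 0.050 (95% interval −0.11 to 0.21). For Hsp90aa1, the stress-responsive cytosolic HSP90, it was 0.047 (95% interval −0.091 to 0.18). Dnajb1 had 58.3, 62.1 and 64.3 CPM in SH Sham and 68.4, 62.4 and 66.1 CPM in SH SNA (log2 0.095, 95% interval −0.040 to 0.23). Hsph1, the nucleotide exchange factor, stood at 226, 241 and 262 CPM in SH Sham and at 219, 223 and 229.8 CPM in SH SNA (log2 −0.12, 95% interval −0.25 to 0.016).

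Hspa1a and Hspa1b, the classical heat-inducible HSP70 genes, had few counted reads in these libraries. Hspa1a had 3.75, 4.09 and 5.35 CPM in SH Sham and 5.43, 5.75 and 4.62 CPM in SH SNA (log2 0.26, 95% interval −0.11 to 0.64). For Hspa1b the values were 5.40, 7.17 and 4.35 CPM and 5.35, 4.82 and 4.70 CPM, and the fold change had the opposite sign (log2 −0.18, 95% interval −0.58 to 0.22). With the copies summed, it was 0.031 and was not called. The transcription factor Hsf1 had 25.1, 24.96 and 27.7 CPM in SH Sham and 21.8, 24.5 and 25.8 CPM in SH SNA (log2 −0.11, 95% interval −0.30 to 0.089). For none of these 7 genes did the groups separate.

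**Figure D2:**
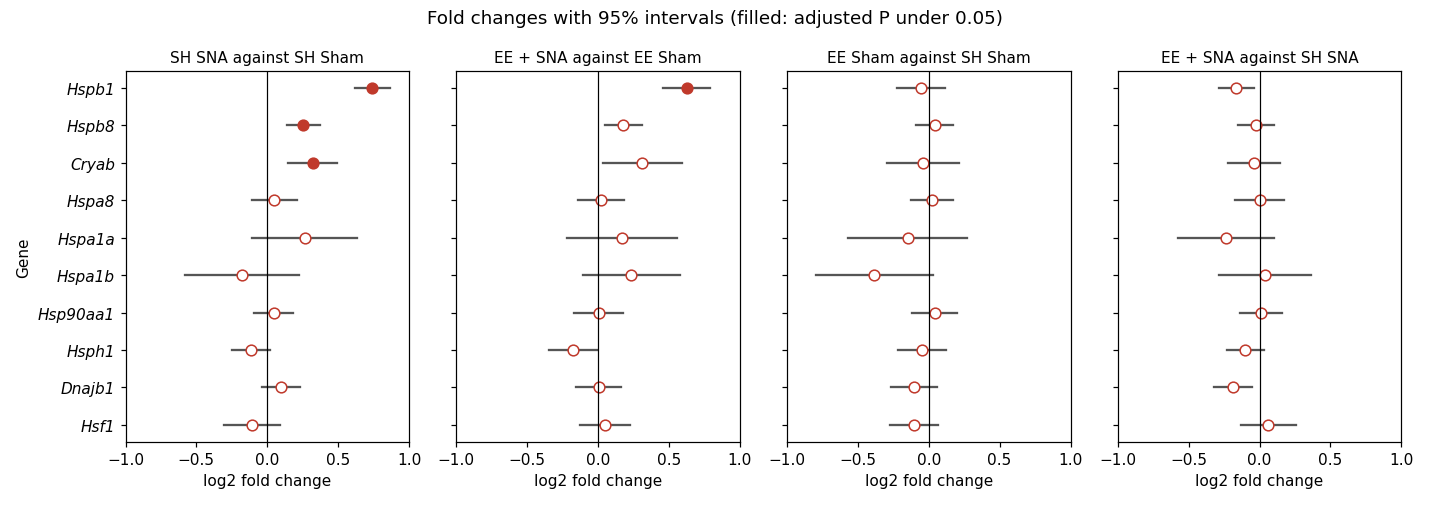
Log2 fold change (x axes) of each gene (y axis) in 4 comparisons, with points for the estimate, filled where adjusted P is under 0.05, and bars for the 95% interval. In SH SNA against SH Sham, Hspb1, Hspb8 and Cryab are filled, in EE + SNA against EE Sham only Hspb1 is, and the 2 comparisons of housing have no filled point.

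In enriched housing Hspb1 was higher in EE + SNA than in EE Sham, a comparison in which SNA and a sequencing round cannot be told apart. Hspb1 had 188, 216 and 188 CPM in EE Sham and 308, 288 and 323 CPM in EE + SNA, with no overlap. The mean rose from 197 ± 16.2 to 306 ± 17.6 CPM (SD, n = 3), 1.54-fold, with a log2 fold change of 0.62 (SE 0.076, 95% interval 0.46 to 0.79, adjusted P = 0.000822 in edgeR's quasi-likelihood test). Of the 10 genes, 1 passed at adjusted P under 0.05, beside 4.83% of all genes tested.

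Hspb8 did not pass. It had 363, 366 and 361 CPM in EE Sham and 415, 394 and 431 CPM in EE + SNA, without overlap and 1.13-fold (log2 0.18, 95% interval 0.046 to 0.31, adjusted P = 0.118 in edgeR's quasi-likelihood test). With all 12 samples in one fit, its adjusted P was 0.0495. Cryab had 118, 176 and 145 CPM in EE Sham and 173, 168 and 207 CPM in EE + SNA, and here the groups overlapped (log2 0.31, 95% interval 0.033 to 0.59, adjusted P = 0.192 in edgeR's quasi-likelihood test). It passed without EE Sham replicate 2, the sample with 176 CPM (log2 0.46, adjusted P = 0.0312 in the same test).

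At unadjusted P under 0.05, 4 genes were called in EE + SNA against EE Sham, where 20.6% of all genes were. Hspb1, Hspb8 and Cryab were higher and Hsph1 was lower. Hsph1 had 255, 212 and 239 CPM in EE Sham and 203, 199.7 and 224 CPM in EE + SNA (log2 −0.18, 95% interval −0.34 to −0.0066), and the groups overlapped. This number was 2 without EE Sham replicate 1 and 1 without EE Sham replicate 3. The values of Hspb1, Hspb8 and Hspa1b in EE + SNA lay wholly above EE Sham, as did those of 13.4% of all genes. Hspa1b had 4.42, 3.87 and 4.63 CPM in EE Sham and 4.89, 5.05 and 5.32 CPM in EE + SNA (log2 0.23, 95% interval −0.11 to 0.58), a span of 49 to 116 reads. For Hspa8, Hsp90aa1, Dnajb1, Hspa1a and Hsf1 the log2 fold changes were 0.019, 0.0040, 0.0049, 0.17 and 0.048, in that order, and none was called. The median over the 10 genes was 0.11, against 0.0039 over all genes.

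Set against SH Sham, EE + SNA gave 2 of the 10 genes at adjusted P under 0.05, beside 12.5% of all genes tested. These were Hspb1 (log2 0.57, SE 0.067, adjusted P = 0.00019) and Hspb8 (log2 0.22, SE 0.058, adjusted P = 0.0242) in edgeR's quasi-likelihood test. Cryab (log2 0.27, adjusted P = 0.0707) and Hsph1 (log2 −0.22, adjusted P = 0.0585) passed at the unadjusted threshold only, which made 4 genes, where 27.2% of all genes passed. DESeq2, edgeR's likelihood ratio test and the fit without the filter on low counts called all 4 after adjustment. Log2 FPKM in limma called Hspb1 alone, as did edgeR without EE + SNA replicate 1. The 12.5% of all genes belongs to the main test, and the share under these alternatives was not computed. Hsph1 had 226 to 262 CPM in SH Sham and 199.7 to 224 CPM in EE + SNA. This comparison shares the SH Sham samples with SH SNA against SH Sham, and EE + SNA samples with EE + SNA against EE Sham.

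No heat shock protein gene was called for housing alone. In EE Sham against SH Sham, edgeR called 0 of the 10 genes at adjusted P under 0.05 and 0 at the unadjusted threshold. It called 0.00616% and 2.97% of all genes there, and DESeq2 called 0 of the 10 genes at either threshold. Hspb1 had a log2 fold change of −0.056 (95% interval −0.22 to 0.11), Hspb8 of 0.041 (−0.092 to 0.17) and Cryab of −0.042 (−0.30 to 0.21). The fold change farthest from 0 was that of Hspa1b (log2 −0.39, 95% interval −0.80 to 0.026, unadjusted P = 0.0644 in edgeR's quasi-likelihood test). With the replicate number as a block, Hspa1b had an unadjusted P of 0.0385 in the same test. It was the 1 of the 10 genes past the unadjusted threshold, there and without SH Sham replicate 3. The samples' deviations did not settle whether these numbers pair the samples. Hsf1 was the 1 gene whose 3 EE Sham values, 24.3, 24.1 and 24.0 CPM, lay below all of SH Sham, the lowest of which was 24.96 CPM (log2 −0.10, 95% interval −0.28 to 0.068), and 4.32% of all genes were separated in that direction.

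Among injured samples, EE + SNA was set against SH SNA directly. By edgeR's quasi-likelihood test and by DESeq2, 0 of the 10 genes passed adjustment, and by edgeR 0% of all genes did. At unadjusted P under 0.05, 2 genes were called, beside 4.1% of all genes, and both were lower in EE + SNA. Hspb1 had 348, 342 and 338 CPM in SH SNA against 308, 288 and 323 CPM in EE + SNA (log2 −0.16, SE 0.057, 95% interval −0.29 to −0.038, adjusted P = 0.989 in edgeR's quasi-likelihood test). Dnajb1 had 68.4, 62.4 and 66.1 CPM against 57.4, 56.6 and 59.2 CPM (log2 −0.19, SE 0.061, 95% interval −0.32 to −0.053, adjusted P = 0.989 in the same test). Without EE + SNA replicate 2, which had the most reads, only Dnajb1 passed the unadjusted threshold. Together with Hspa1a (log2 −0.24, 95% interval −0.57 to 0.10), these were the 3 genes whose EE + SNA values all lay below SH SNA, as did those of 5.09% of all genes.

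The interaction of housing and surgery, fitted on all 12 samples, asks whether SNA moves a gene by a different amount after EE. It called 0 of the 10 genes at adjusted P under 0.05, beside 0% of all genes, and 0 at the unadjusted threshold, beside 2.61%, and DESeq2 called 0 at either. The difference between the log2 fold changes, EE minus SH, was −0.11 for Hspb1 (95% interval −0.31 to 0.097), −0.067 for Hspb8 (−0.23 to 0.097) and 0.0017 for Cryab (−0.35 to 0.36). The interval of Cryab spans more than its own change after SNA, so that a difference between housings of that size could not be detected. Hspa1b had the lowest unadjusted P of the 10 (0.0988, log2 0.42, edgeR's quasi-likelihood test), and without SH Sham replicate 3 it passed the unadjusted threshold.

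Whole ganglia hold many cell types, and in such RNA fewer cells of a type and less RNA per cell cannot be told apart. Markers of other cells varied between samples, and some were higher after SNA. Skeletal muscle transcripts, 10 of 10 found, summed to 3.58 to 157 CPM in SH Sham and 11.4 to 189.6 CPM in EE Sham, but to 42.4, 1078 and 48.5 CPM in SH SNA and 125 to 195 CPM in EE + SNA. In both housings the sham and SNA samples overlapped. Of the 10 muscle genes, 0 passed at adjusted P under 0.05 in either SNA comparison. At the unadjusted threshold 9 in SH and 0 in EE were higher, where 25.2% and 20.6% of all genes passed in either direction. The 1078 CPM belong to SH SNA replicate 2. Among the small heat shock protein genes, Hspb6 and Hspb7 stood out in it too. In that sample Hspb7 had 31.5 CPM against 2.06 and 2.31 CPM in the others of its group, and Hspb6 had 31.4 CPM against 15.0 and 11.3 CPM. Hspb2 did not stand out there, with 4.65 CPM against 3.29 and 4.85 CPM in the others of its group. Hspb2, Hspb6 and Hspb7 were named after their values were seen.

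Hspb1 in SH SNA replicate 2 was 342 CPM, between the other injured samples. Without that sample, the log2 fold change of Hspb1 was 0.74 and that of Hspb8 was 0.24, and both passed in edgeR's quasi-likelihood test (adjusted P = 2.43e-05 and 0.0323). That of Cryab was 0.31 (adjusted P = 0.0529 in the same test). The number of the 10 genes called then went from 3 to 2.

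**Figure D3:**
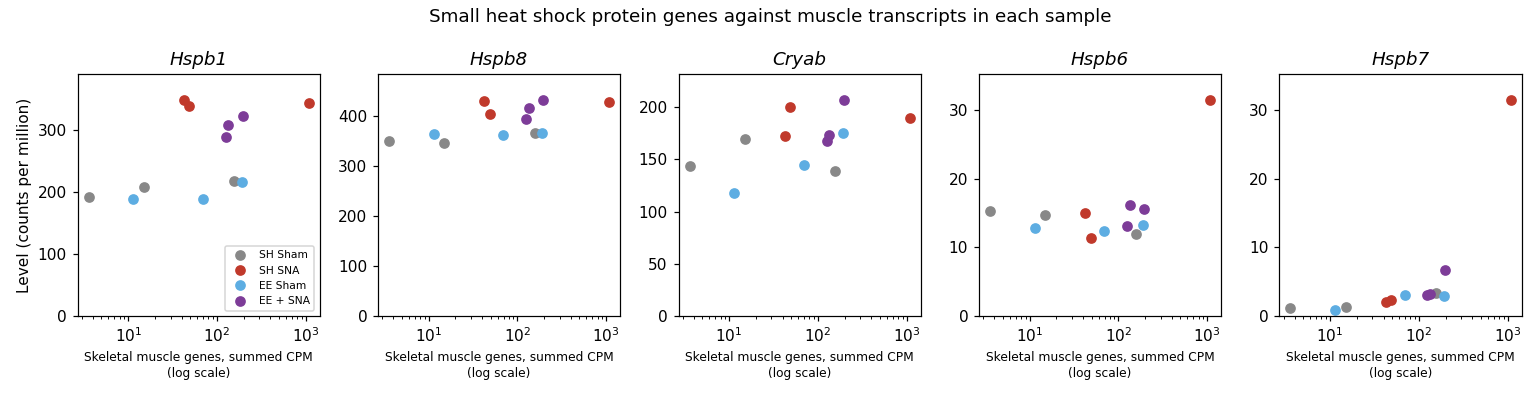
Level in CPM (y axes, from 0) of 5 small heat shock protein genes against the summed CPM of 10 skeletal muscle genes (x axes, log scale), with 1 point per sample, coloured by group. SH SNA replicate 2, at 1078 CPM of muscle transcripts, stands apart for Hspb6 and Hspb7 (31.4 and 31.5 CPM), and for Hspb1 it lies at 342 CPM beside its group.

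Schwann cell markers, 6 of 6 tested, summed to 7352, 8261 and 6787 CPM in SH Sham and 8889.8, 7232 and 10709.8 CPM in SH SNA. In EE Sham they summed to 5964, 8465 and 7132 CPM and in EE + SNA to 8752, 8850.3 and 11541 CPM. Of the 6 genes, 0 passed at adjusted P under 0.05 in either SNA comparison, while 5 in SH and 4 in EE were higher at the unadjusted threshold. In the sham samples, Cryab levels varied with these sums and with those of satellite glia and macrophages. Over the 6 sham samples, Pearson's r between log2 Cryab and the log2 sum was 0.992 (Spearman's rho 0.943), and it was 0.97 without the 2 samples farthest from the median. In the same samples r was 0.899 with the satellite glia sum (0.914 without the 2 farthest) and 0.812 with the macrophage sum (0.445 without them). Over the 6 SNA samples r was −0.22 with the satellite glia sum and 0.31 with the macrophage sum. With the Schwann cell sum it was 0.56 there (rho 0.486), and 0.978 without the 2 farthest samples. SH SNA replicate 2, with 189.9 CPM of Cryab at the lowest Schwann cell sum of the injured samples, lay off the line. For Hspb1 the r with the Schwann cell sum was 0.54 in sham and −0.045 in SNA samples, and for Hspb8 it was −0.37 and −0.075. Without the 2 farthest samples these were 0.0012 and 0.46 for Hspb1, and −0.89 and −0.28 for Hspb8. With the skeletal muscle sum, r was 0.65 in sham and −0.0095 in SNA samples for Hspb1. For Hspb8 it was 0.73 and 0.33. Without the 2 farthest samples these were 0.43 and −0.49 for Hspb1, and 0.52 and 0.57 for Hspb8. The points share library, scaling and dissection, 24 such relations of the 3 genes with 4 cell types were computed and these were picked after their values were seen, and no test was made of them.

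**Figure D4:**
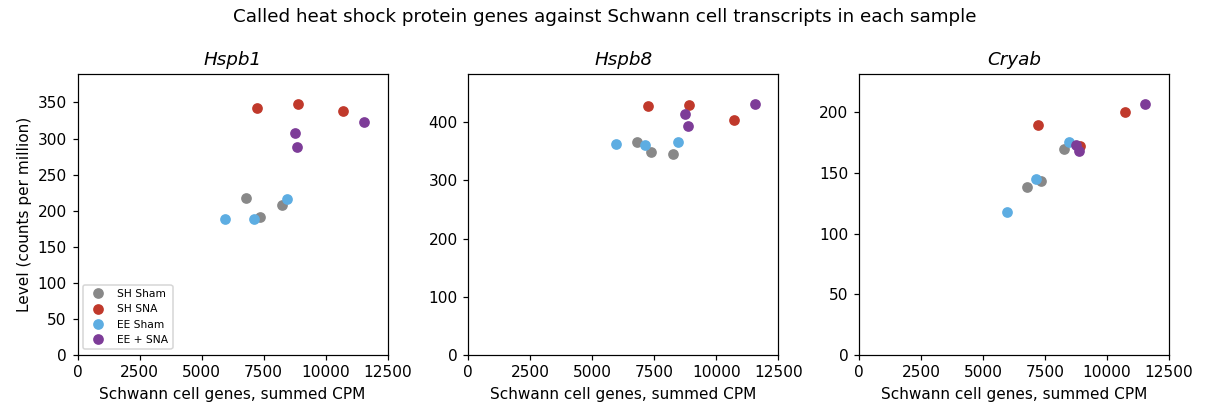
Level in CPM (y axes, from 0) of Hspb1, Hspb8 and Cryab against the summed CPM of 6 Schwann cell genes (x axes), with 1 point per sample, coloured by group. Cryab climbs with the Schwann cell sum in the 6 sham samples (r 0.992), and for Hspb1 the 6 SNA samples (288 to 348 CPM) lie above the 6 sham samples (188 to 217 CPM).

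The sums of the other marker lists are given for the sham and the SNA samples. Satellite glia genes, 6 of 6 tested, summed to 2587 to 3138 CPM in sham and 3024 to 3442 CPM in SNA samples, and 2 were called higher in SH SNA and 1 in EE + SNA against their sham groups. Macrophage genes (7 of 8 found) went from 57.8 to 69.1 CPM in sham to 73.4 to 100.0 CPM in SNA samples, neutrophil genes spanned 56.8 to 179 and 97.8 to 587 CPM, and red blood cell genes (3 of 5 found) 111 to 307 and 175 to 595 CPM. Of these, 1 macrophage gene and 2 red blood cell genes were called higher in SH SNA against SH Sham. Fibroblast genes spanned 630.2 to 731 and 641 to 988 CPM, endothelial genes 62.9 to 87.4 and 77.5 to 97.3 CPM, and epidermal genes (2 of 6 tested) 3.52 to 5.16 and 3.42 to 4.81 CPM. Sensory neuron genes spanned 11472 to 12775 and 10889 to 11855 CPM, and 1 of 8 was called lower in SH SNA. The part of these cell types in the rise of Hspb1, Hspb8 and Cryab was not tested.

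Of the 74 other genes in the 7 chaperone lists, 66 were tested. In SH SNA against SH Sham, 3 were called higher, 1 was called lower and 62 were not called at adjusted P under 0.05, a threshold that 11.2% of all genes passed, and their median log2 fold change was −0.014. Fkbp5, an HSP90 co-chaperone whose gene is induced by glucocorticoids, had 55.0, 73.1 and 78.8 CPM in SH Sham and 91.8, 90.7 and 107 CPM in SH SNA (log2 0.49, adjusted P = 0.0132 in edgeR's quasi-likelihood test). Hspa5, the HSP70 of the endoplasmic reticulum, had 303, 326 and 325 CPM and 393, 379.7 and 426 CPM (log2 0.33, adjusted P = 0.0036 in the same test). The J protein gene Dnajb6 was higher (log2 0.18, adjusted P = 0.0405) and Fkbp4, another co-chaperone of HSP90, was lower (log2 −0.19, adjusted P = 0.0423) in the same test. For all 4 genes the SH SNA and SH Sham samples did not overlap. In EE + SNA against EE Sham, 0 of the 66 were called by edgeR after adjustment and 14 at unadjusted P under 0.05, 8 higher and 6 lower, beside 4.83% and 20.6% of all genes at these thresholds.

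By family, 3 of the 7 tested small heat shock protein genes were called in SH SNA against SH Sham, where 11.2% of all genes were. All 3 are among the 10 genes described here. The call was 1 of 15 for HSP70 and HSP110 genes (Hspa5), 1 of 14 for J proteins (Dnajb6) and 2 of 22 for co-chaperones (Fkbp5 higher, Fkbp4 lower). It was 0 of 4 for HSP90 genes, 0 of 10 for chaperonins and 0 of 4 for heat shock factors and their binding protein. At the unadjusted threshold, which 25.2% of all genes passed, 1 HSP90 gene (Trap1, lower, log2 −0.19), 0 chaperonins and 0 heat shock factors passed. Of the 11 textbook targets of HSF1 other than the genes described here, 1 (Fkbp4) was called lower and 10 were not called, and their median log2 fold change was −0.074 in SH SNA and −0.095 in EE + SNA, each against its own sham group. In EE + SNA 0 of the 11 were called by edgeR after adjustment and 3 were lower at unadjusted P under 0.05. Of all genes, 4.83% and 20.6% passed these thresholds in either direction. In EE + SNA against EE Sham, Hspb1 was the only call in the 7 lists.

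**Figure D5:**
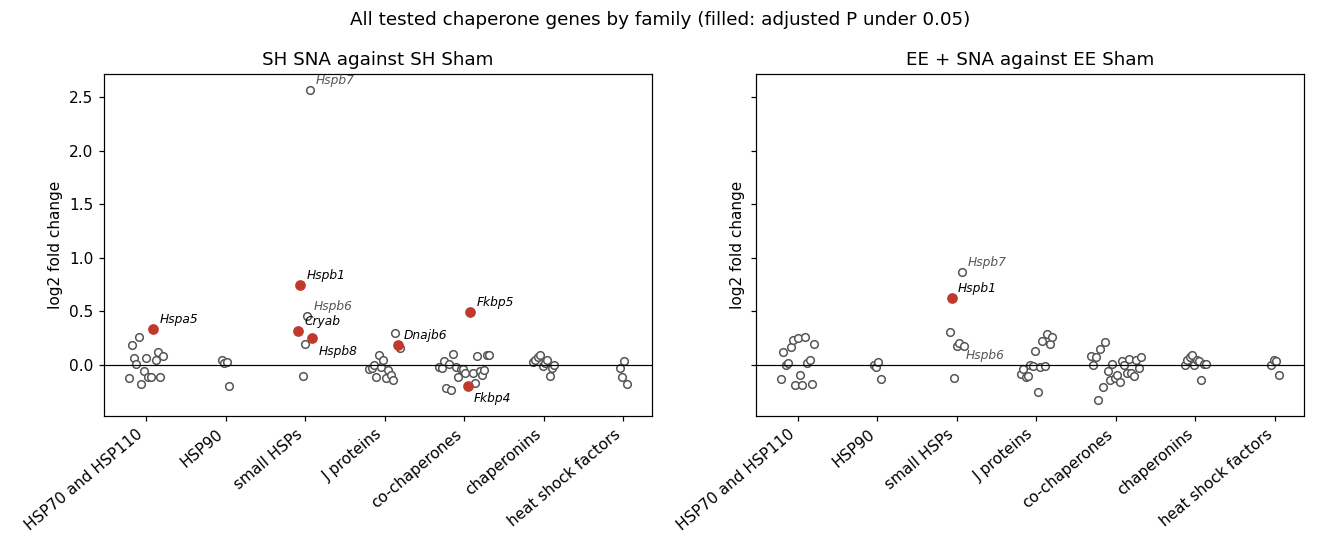
Log2 fold change (y axes) of every tested chaperone gene, grouped by family (x axes), in SH SNA against SH Sham (left) and EE + SNA against EE Sham (right), with filled points for adjusted P under 0.05. Of the 76 genes, 7 are filled on the left, 3 of them small heat shock protein genes, and only Hspb1 on the right, while Hspb7 lies highest in both and is open.

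Finally, genes were ranked by how closely their log2 CPM followed Hspb1 over the 12 samples, among 15343 genes with at least 1 CPM on average. The most alike were Hn1 (Pearson's r 0.994), St6galnac4 (0.986), Adam8 (0.985), Itga7 (0.983) and Ahcy (0.983). Hn1 had 126 to 138 CPM in the sham samples and 174 to 204 CPM in the SNA samples, so that these values describe mainly the step from sham to SNA. Within the 6 sham and the 6 SNA samples, Hspb1 and Hspb8 had r of 0.196 and 0.657, and Hspa1a and Hspa1b had r of 0.020 and −0.017. For the sum of Hspa1a and Hspa1b, which had 7.06 to 11.3 CPM, the closest gene was Trmt1l (r 0.884). Gm14232 (0.857), Ndufa4l2 (0.847), Stk10 (0.832) and Ints6 (0.830) followed. Spearman's rho of these genes was lower, at 0.503 (Ints6) to 0.790 (Gm14232). Both lists hold the highest r of all genes ranked, 15342 for the sum, and no test was made of them.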

How the data were processed

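RNA-seq was carried out on 12 samples of whole mouse DRG, 3 in each of 4 groups. The authors aligned reads to mm10 with TopHat2 (2.0.12) and Bowtie2 (2.2.3), as named in the submitters' processing notes, and deposited unnormalised read counts per gene made with HTSeq (0.6.0), and FPKM values, which divide counts by gene length and library size. The strand setting of the counting is not given in the sources used here, so that reads of overlapping genes on opposite strands may not be separated. Rows that name no gene stayed out of library sizes. They held 46.7 to 47.6% (no feature), 8.49 to 9.28% (not unique) and 0.314 to 0.370% (ambiguous) of each library. All columns of the table were assigned to samples by their labels.

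Counts were filtered with filterByExpr (minimum count 10, minimum total 15) and scaled by TMM (factors 0.978 to 1.02), and pairs of groups were compared with edgeR's quasi-likelihood test (4.0.16, R 4.3.3) on the 6 samples concerned. The interaction used all 12. P was adjusted over all 16238 genes tested by the method of Benjamini and Hochberg and called at 0.05, and the unadjusted 0.05 is given beside it. Intervals are 95% intervals of the fitted log2 fold change. An exact permutation test of 3 against 3 samples cannot go below P = 0.1. Alternatives were DESeq2 (1.42.0), edgeR's likelihood ratio test, library size scaling, other filters, 1 fit of all samples, a replicate block, the sum of Hspa1a and Hspa1b, log2 FPKM with pseudocounts of 1 and 0.1 in limma (3.58.1), and leaving out each sample. The fits were tested on simulated data. Annotation and figures used Python 3.11.15, pandas 2.3.3 and matplotlib 3.10.9.

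The 10 genes and the lists (7 chaperone families, HSF1 targets, injury and immediate early genes, and 10 cell types) were chosen with earlier results of these data known. The 10 genes are always named. Beyond them, the rule names up to 10 chaperone genes with the largest change among those at adjusted P under 0.05 and at least 1 CPM in each comparison of SNA with its own sham group, the 5 genes most alike to Hspb1 and to Hspa1a and Hspa1b summed by Pearson's r of log2(CPM + 0.5), and Atf3. Replicate numbers come from the labels. Correlations of the deviations of same-numbered samples were 0.331, 0.137 and 0.111 between EE Sham and SH Sham. On the same scale, EE Sham replicate 2 correlated more with SH Sham replicate 3 (0.194). On the scale of log2(CPM + 0.5) the lowest same-numbered value was 0.0793. Whether the numbers pair these samples is therefore unsettled, and the block is given as an alternative only. In EE + SNA against SH SNA the same-numbered values on that scale were low (0.0701, 0.103 and 0.126). Each was still above the other values of its samples, so that pairing is unsettled there too. In the remaining comparisons at least 1 same-numbered correlation was negative, and the numbers were not taken to pair the samples.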

Additional observations from a re-analysis of the deposited data

How the results depend on the processing

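Over all 10 genes and comparisons, 1010 values were recomputed under alternatives, of which 923 kept direction and side of the threshold, 58 changed direction, 16 gained a call and 13 lost one, and of the values called at either threshold 0 changed direction. Hspa1b in SH SNA against SH Sham was 0.031 (log2) with Hspa1a and Hspa1b summed, and Cryab in the interaction was −0.0038 in DESeq2. Leaving out 1 sample at a time, log2 values ran from −0.34 to 0.027 (Hspa1b) and −0.00099 to 0.11 (Hspa8) in SH SNA against SH Sham, from −0.057 to 0.057 (Hspa8), −0.073 to 0.071 (Hsp90aa1) and −0.056 to 0.037 (Dnajb1) in EE + SNA against EE Sham, and for Cryab from −0.20 to 0.095 in EE Sham against SH Sham and −0.14 to 0.16 in the interaction. Genes called after adjustment in EE + SNA against EE Sham numbered 2 without the filter (Hspb1, Cryab) and 2 with all 12 samples in 1 fit (Hspb1, Hspb8), and 1 to 2 with a sample left out, 2 without EE Sham replicate 2. At unadjusted P they numbered 1 to 4 with a sample left out, 1 without EE Sham replicate 3. In EE + SNA against SH Sham they numbered 4 after adjustment in DESeq2, the likelihood ratio test and without the filter, 1 on either FPKM scale, and 1 to 3 with a sample left out, 1 without EE + SNA replicate 1. At unadjusted P, EE Sham against SH Sham gave 1 gene (Hspa1b) without the filter and with all 12 samples, and 0 to 1 with a sample left out. EE + SNA against SH SNA gave 1 to 3, 1 without EE + SNA replicate 2, and the interaction 0 to 1. The share of all genes called under each alternative was not computed, and the cause of these changes was not tested.

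With a replicate block in the fit, EE Sham against SH Sham gave 1 gene at unadjusted P (Hspa1b) and 0 after adjustment. EE + SNA against SH Sham gave 3 after adjustment, with Hsph1 added (adjusted P = 0.0468, edgeR's quasi-likelihood test), and SH SNA against SH Sham gave 3. Few counted reads limit Hspa1a and Hspa1b, with 42 to 116 per sample, and 3 samples a group limit every interval.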
